A study of Mus musculus with 4 samples.

Results

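Transcripts of 9 genes were followed in T cells sorted for surface CD4: the CD8 coreceptor chains Cd8a and Cd8b1, the surface receptors Cd7, Jaml, Cd160, Klrd1 and Klrk1, the signalling adaptor Fcer1g, and the transcription factor gene Zbtb7b. These genes, like the gene lists used below, were chosen by name with earlier results of these data known. Counts of them beside the share of all genes are therefore a description. All 9 were found among the 31053 gene IDs of each matrix. Live CD45+CD3+CD4+ cells had been sorted from the lamina propria of the small intestine of C57Bl/6 mice with a wild-type genotype, and 4 droplet libraries of their 5′ transcript ends were made. All 4 libraries belong to 1 group, with no treated or mutant animals, so each comparison is between cells of the same libraries. Per the labels' protocols, the tissue was freed of Peyer's patches and washed in EDTA before its collagenase digestion. After filtering, 21501 cells were analysed, between 5149 and 5626 in each library, with a median of 3848 unique transcript counts (UMIs) per cell.

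Cells were placed in 5 gates by the first rule they met. The Foxp3 gate held 1535 cells with at least 1 UMI of Foxp3, the defining gene of regulatory T cells. The Il17a gate held 586 cells with at least 1 UMI of Il17a, the Th17 cytokine. Ifng, the Th1 cytokine, placed 6599 cells in a gate at 1 UMI or more. Gzma, a granzyme of cytotoxic granules, placed 1746 cells in a gate at 10 UMIs or more, and the remaining 11035 cells formed the rest gate. Median UMIs per cell were 4483, 5215.5, 3964 and 3576.5 in the Foxp3, Il17a, Ifng and Gzma gates and 3745 in the rest gate. Levels are CPM, the UMIs of a gene over all UMIs of the summed cells of a library, times 1e6, and are given as mean ± SD over 4 libraries. The T cell markers Cd3e, Cd3d, Cd3g, Cd4, Trac, Trbc2, Cd5 and Cd28 were all detected, and summed to between 5868 and 6096 CPM per library.

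The CD8 coreceptor binds MHC class I molecules, and the transcription factor ThPOK, encoded by Zbtb7b, keeps it silent in helper T cells, whereas Runx3 acts in the opposite direction. In the mouse intestine, CD4 T cells that enter the epithelium are known to lose ThPOK, to gain the CD8 alpha chain without the beta chain, and to take up cytotoxic genes, the integrin gene Itgae and the receptor genes Cd244 and Crtam. The other receptors are best known from natural killer (NK) cells and intraepithelial lymphocytes: Jaml binds the epithelial adhesion molecule encoded by Cxadr, Cd160 binds the molecule encoded by Tnfrsf14, Klrd1 (CD94) pairs with NKG2 proteins to read the MHC class Ib molecule encoded by H2-T23, and Klrk1 (NKG2D) reads stress-induced ligands.

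The genes lie on 5 chromosomes of mm10. Cd8b1 (chr6:71322788-71337494) ends 35933 bases before Cd8a (chr6:71373427-71379173) on the same strand. Klrd1 (chr6:129591782-129598775) and Klrk1 (chr6:129610323-129623864) are 11548 bases apart on opposite strands. Cd160 (chr3:96798763-96829351) and Zbtb7b (chr3:89377644-89394776) share a chromosome at a distance, and Cd7 (chr11:121036747-121039418), Jaml (chr9:45079183-45108534) and Fcer1g (chr1:171229572-171234365) stand alone. RefSeq promoter windows of GRCm38.p6, the assembly behind mm10, reach from 250 bases before a transcription start to 50 bases after it and were matched for 6 of the 9 genes. The matched genes were Cd8a, Zbtb7b, Jaml, Cd160, Fcer1g and Klrk1. The 4 windows printed here are those of Cd8a itself and of the matched genes in many cells that moved with it, upward for Jaml and Cd160 and downward for Zbtb7b. They were searched on both strands for the RUNX core (TGTGGT, or ACCACA on the other strand) and for a T-box core (GGTGTGA, or TCACACC). A T-box core can begin with the last 3 letters of a RUNX core, and capitals mark a match. Each is written 5′ to 3′ on the gene's own strand.
Cd8a, chr6:71373177-71373476, plus strand: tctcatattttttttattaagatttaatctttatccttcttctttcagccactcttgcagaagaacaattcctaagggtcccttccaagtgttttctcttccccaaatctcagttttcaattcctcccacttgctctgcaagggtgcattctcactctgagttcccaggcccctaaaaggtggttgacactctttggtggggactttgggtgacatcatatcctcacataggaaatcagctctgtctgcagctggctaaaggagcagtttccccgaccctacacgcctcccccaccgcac
Zbtb7b, chr3:89393329-89393628, minus strand: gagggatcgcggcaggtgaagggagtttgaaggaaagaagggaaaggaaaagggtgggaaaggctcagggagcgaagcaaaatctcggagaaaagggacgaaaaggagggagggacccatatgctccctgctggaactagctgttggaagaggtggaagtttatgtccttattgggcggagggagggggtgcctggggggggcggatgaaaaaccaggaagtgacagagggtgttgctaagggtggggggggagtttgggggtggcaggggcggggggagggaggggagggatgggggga
Jaml, chr9:45078933-45079232, plus strand: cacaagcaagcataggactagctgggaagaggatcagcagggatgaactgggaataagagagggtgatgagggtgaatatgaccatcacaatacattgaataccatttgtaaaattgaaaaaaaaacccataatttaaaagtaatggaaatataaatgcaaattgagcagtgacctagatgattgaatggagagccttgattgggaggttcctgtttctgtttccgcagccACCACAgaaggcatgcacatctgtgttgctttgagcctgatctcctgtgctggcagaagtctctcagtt
Cd160, chr3:96829302-96829601, minus strand: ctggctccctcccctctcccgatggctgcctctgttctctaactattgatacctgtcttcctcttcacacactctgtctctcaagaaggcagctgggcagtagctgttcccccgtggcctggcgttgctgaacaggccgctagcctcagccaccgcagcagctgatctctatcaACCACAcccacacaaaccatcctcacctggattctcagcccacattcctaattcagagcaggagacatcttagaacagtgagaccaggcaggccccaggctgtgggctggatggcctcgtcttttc

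The Jaml window held 1 RUNX core, 19 bases before the start, and the Cd160 window held 1, 76 bases before the start. Neither core stood in the Cd8a window or in the Zbtb7b window shown. A second Cd160 window, at an internal start, held a RUNX core and a T-box core, and a second Zbtb7b window held a RUNX core 89 bases before its start. The windows of Fcer1g and Klrk1, not printed here, each held a RUNX core as well, that of Klrk1 129 bases before its start. Of 32851 mouse promoter windows, 16.76% held the RUNX core and 3.979% held the T-box core, so a RUNX match was common among all genes. A match here is a run of letters and not a measured binding site.

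In this CD4-sorted population, Cd160, Cd7 and Jaml were abundant, Zbtb7b and Cd8a were intermediate, and the other members were rare. Cd160 had 228.5, 221.4, 219.7 and 240.1 CPM in libraries 1 to 4, and Cd7 had 270.4, 220.7, 183.9 and 212.6 CPM. Jaml had 104.6, 100.5, 113.3 and 112.6 CPM. Cd160 and Jaml therefore varied little between libraries, and Cd7 varied more, from 183.9 to 270.4 CPM. Zbtb7b had 17.5, 24.5, 28.4 and 25.6 CPM, and Cd8a had 11.5, 22.6, 12.1 and 46.2 CPM. Cd8a was the member that differed most between the libraries, with library 4 above the other 3. Cd8b1 averaged 9.22 ± 4.20 CPM, Fcer1g 9.63 ± 1.51 CPM, Klrd1 6.37 ± 3.05 CPM and Klrk1 1.99 ± 0.804 CPM (SD, n = 4). The libraries counted 5′ ends, so levels of different genes are on 1 scale without a length term.

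At a common depth of 2000 UMIs per cell, which 20752 cells reached, Cd160 was detected in 29.1% ± 1.5 of cells, Cd7 in 21.2% ± 2.21 and Jaml in 17.1% ± 0.369 (SD, n = 4). Without thinning these shares were 42.7%, 29.4% and 27.4% of 21501 cells pooled. For comparison, shares were read in the 1506 cells of the Foxp3 gate at the same depth, where regulatory T cells are expected to hold little of most of these receptors. The median depth before thinning was 4537.5 UMIs there and 3899.5 UMIs over all 20752 cells. In the Foxp3 gate Cd160 was detected in 10.7%, Jaml in 3.39% and Cd7 in 8.76% of cells. Cd8a was detected in 2.12% ± 1.64 of all cells and in 0.398% of the Foxp3 gate. Zbtb7b was detected in 4.73% ± 0.779 of all cells and in 5.44% of the Foxp3 gate. Over all cells the share of Cd8b1 (1.08%) was below that of the Foxp3 gate (2.92%), and that of Fcer1g (0.615%) was near it (0.531%). The Foxp3 gate is a T cell class of its own and not a background level. For Cd8b1, Fcer1g and Zbtb7b its shares therefore cannot show whether the gene was expressed over the whole population. Klrd1 was detected in 0.916% of all cells and in 0.398% of the Foxp3 gate, and Klrk1 in 0.325% and 0.199%.

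**Figure D1:**
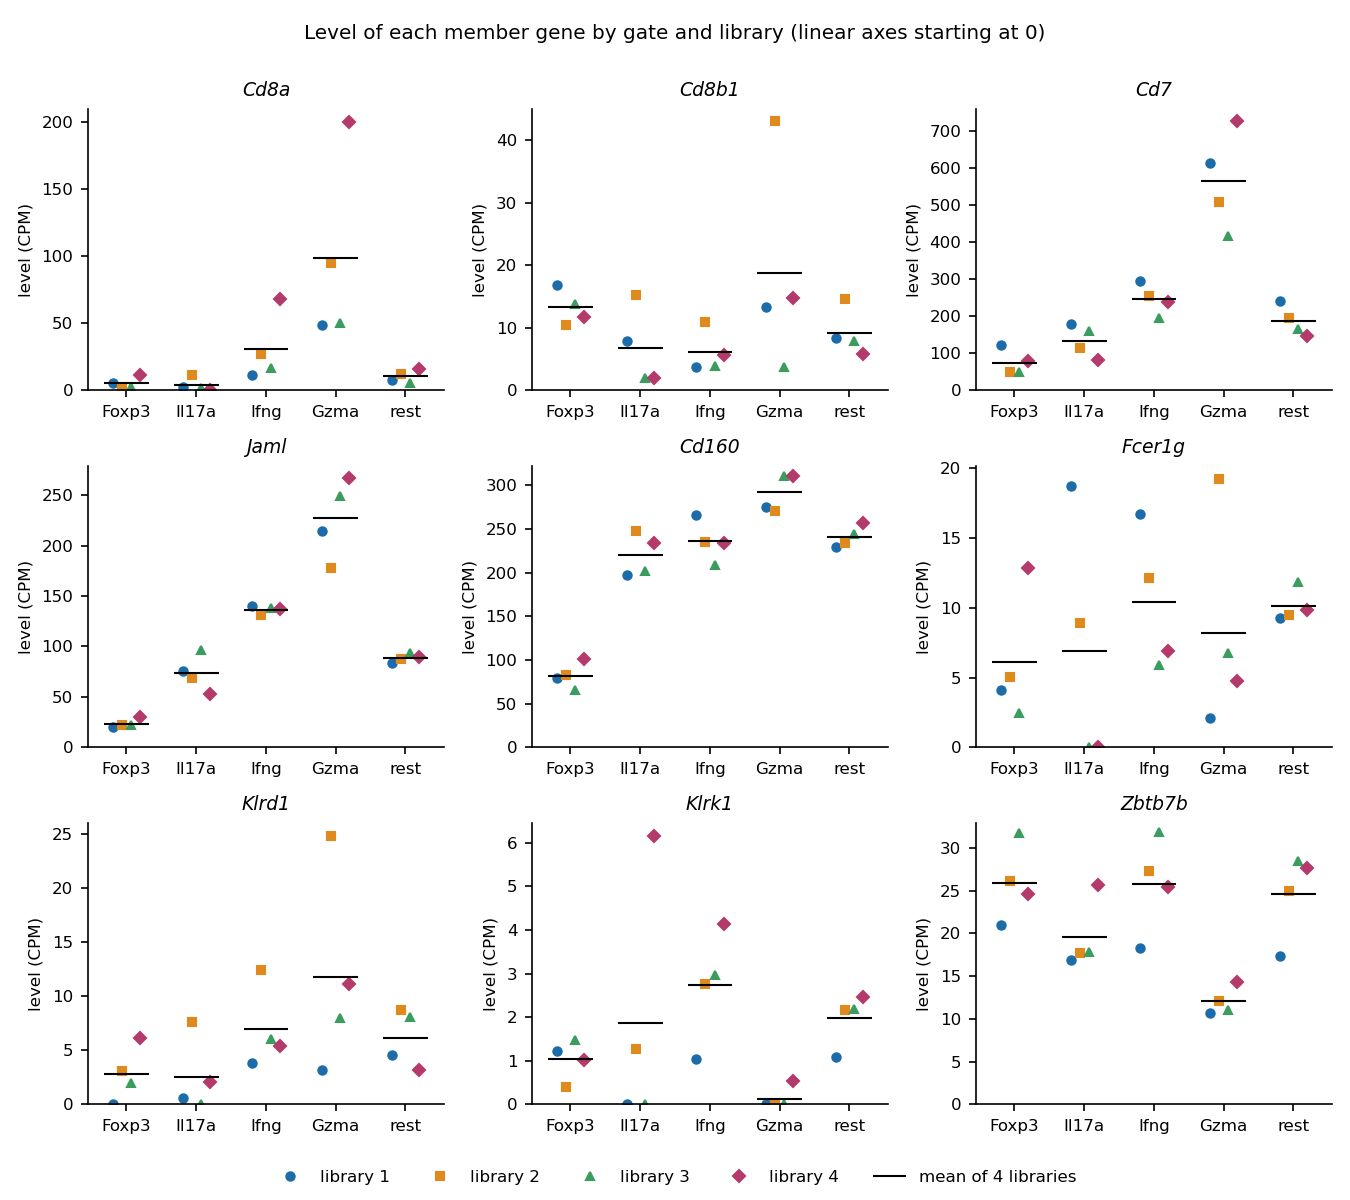
Level in CPM (linear y axes starting at 0) of the 9 genes in the Foxp3, Il17a, Ifng, Gzma and rest gates. Points are the 4 libraries and bars their mean; Cd8a in the Gzma gate lies between 48.6 and 199.8 CPM, above every library of the rest gate, and Zbtb7b in the Gzma gate lies between 10.7 and 14.3 CPM, below every library of the rest gate.

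Across the gates, the Gzma gate held the highest mean level of Cd8a, Cd7, Jaml and Cd160 and the lowest of Zbtb7b. The Foxp3 gate held the lowest of Cd7, Jaml and Cd160. Gates were compared in 1 edgeR quasi-likelihood fit of 20 sums (4 libraries by 5 gates) with the library as a block, and p-values were adjusted by Benjamini-Hochberg over 9861 genes. Klrk1 was too rare to pass the filter on low counts in this fit, so 8 members were tested.

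Cd8a had 48.6, 94.6, 50.5 and 199.8 CPM in the Gzma gate of libraries 1 to 4, against 7.91, 12.5, 5.40 and 16.2 CPM in the rest gate. The groups did not overlap, and each library's Gzma gate was above its own rest gate. On the log2 scale Cd8a was higher in the Gzma gate by 3.15 ± 0.19 (SE; edgeR adjusted p = 2.0e-10). In the Ifng gate Cd8a had 11.8, 27.3, 16.6 and 68.3 CPM, against the same rest gate, a log2 difference of 1.45 ± 0.19 (edgeR adjusted p = 9.5e-06), higher in 4 of 4 libraries. Without the library block the Ifng gate's call for Cd8a was lost (edgeR adjusted p = 0.0838). Cd8a averaged 5.46 CPM in the Foxp3 gate and 3.95 CPM in the Il17a gate, against 10.5 ± 4.79 CPM in the rest gate, and neither difference passed the test (edgeR adjusted p = 0.0588 and 0.0770).

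The beta chain followed a different order of gates. Cd8b1 had 13.3, 43.0, 3.69 and 14.8 CPM in the Gzma gate, against 8.41, 14.7, 7.96 and 5.76 CPM in the rest gate. Library 2 stood far above the others in the Gzma gate, and library 3 went the other way. The log2 difference of 0.99 ± 0.30 passed the test (edgeR adjusted p = 0.0238), higher in 3 of 4 libraries, but without library 2 it was 0.54 (edgeR adjusted p = 0.348) and without library 4 the adjusted p was 0.0795. DESeq2 did not call it either (adjusted p = 0.217). In the Foxp3 gate Cd8b1 had 16.8, 10.5, 13.9 and 11.8 CPM, the second highest mean of the gates, and its log2 difference of 0.56 against the rest gate did not pass (edgeR adjusted p = 0.174).

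Cd7, an immunoglobulin-family receptor of T and NK cells, had 613.4, 508.5, 417.2 and 727.3 CPM in the Gzma gate, against 241.0, 194.2, 166.1 and 146.1 CPM in the rest gate. Every Gzma gate was above every rest gate, with a log2 difference of 1.60 ± 0.15 (edgeR adjusted p = 1.1e-07). In the Foxp3 gate Cd7 had 122.8, 49.9, 48.6 and 80.1 CPM and was lower than the rest gate by -1.31 ± 0.18 on the log2 scale (edgeR adjusted p = 3.3e-06). Its level in the Ifng gate, 246.6 ± 41.2 CPM against 186.8 ± 41.1 CPM in the rest gate, did not pass the test (edgeR adjusted p = 0.101).

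Jaml had 214.6, 177.6, 249.2 and 266.9 CPM in the Gzma gate and 139.6, 131.3, 137.6 and 137.0 CPM in the Ifng gate, against 83.5, 87.5, 93.5 and 90.0 CPM in the rest gate. The 3 gates did not overlap with one another. Jaml was higher by 1.34 ± 0.09 in the Gzma gate (edgeR adjusted p = 9.5e-10) and by 0.61 ± 0.09 in the Ifng gate (edgeR adjusted p = 3.2e-05), both on the log2 scale. In the Foxp3 gate it had 20.1, 21.8, 21.8 and 29.8 CPM, a log2 difference from the rest gate of -1.90 ± 0.13 (edgeR adjusted p = 6.1e-11), the strongest drop among the members in that gate.

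Cd160 separated the Foxp3 gate from the other 4 more than it separated those from one another. It had 79.7, 82.3, 65.9 and 100.6 CPM in the Foxp3 gate, against 228.9, 233.6, 243.9 and 256.9 CPM in the rest gate, a log2 difference of -1.52 ± 0.09 (edgeR adjusted p = 5.3e-12). In the Gzma gate it had 275.5, 270.7, 310.1 and 310.3 CPM, above every library of the rest gate by a small margin. That difference of 0.26 ± 0.08 passed the test (edgeR adjusted p = 0.0240), but it missed the threshold without library 1, 2 or 3 (edgeR adjusted p = 0.0554, 0.0539 and 0.0945) and without the library block (edgeR adjusted p = 0.0897). Neither the Il17a gate (220.0 ± 24.6 CPM) nor the Ifng gate (235.7 ± 23.5 CPM) passed the test against the rest gate (240.8 ± 12.4 CPM). Their edgeR adjusted p was 0.510 and 0.807. The Il17a-gate mean lay below every library of the rest gate.

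Zbtb7b had 10.7, 12.1, 11.1 and 14.3 CPM in the Gzma gate, against 17.3, 25.0, 28.5 and 27.6 CPM in the rest gate. The gates did not overlap, and Zbtb7b fell by 1.03 ± 0.13 on the log2 scale (edgeR adjusted p = 6.9e-06). It averaged 25.9 ± 4.47 CPM in the Foxp3 gate, 19.5 ± 4.10 in the Il17a gate and 25.7 ± 5.65 in the Ifng gate, none of which passed the test against 24.6 ± 5.08 CPM in the rest gate. The Gzma gate was therefore the only one of the 4 tested gates in which Zbtb7b was called.

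The rare receptors gave few calls. Klrd1 had 3.2, 24.8, 8.0 and 11.1 CPM in the Gzma gate, against 4.58, 8.76, 8.05 and 3.22 CPM in the rest gate, and the 2 gates overlapped (edgeR adjusted p = 0.0810). Fcer1g averaged 8.22 ± 7.58 CPM in the Gzma gate, 10.4 ± 4.99 in the Ifng gate and 10.1 ± 1.19 in the rest gate, and it was called in none of the 4 comparisons. Klrk1 was held by 1 UMI in the whole Gzma gate, against 90 UMIs in the rest gate and 84 in the Ifng gate. Its level was 0.136 CPM pooled over the Gzma gate, below the limit of 0.407 CPM that a count of 0 would allow, and 1.96 CPM pooled over the rest gate.

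Of the 8 members tested, 5 rose and 1 fell in the Gzma gate, where 8.67% and 7.26% of all genes tested were called higher and lower. In the Ifng gate 2 rose and 0 fell, with 5.62% and 5.21% of all genes called. In the Foxp3 gate 0 rose and 3 fell, with 18.8% and 14.9% of all genes called (33.7% in either direction). In the Il17a gate edgeR called 0 of the 8, where 26.1% of all genes were called; DESeq2 also called 0, and 2 members (Cd7 and Cd8a) had an unadjusted p below 0.05. Library-size scaling called Cd7 there, Cd8a was called without library 2 (edgeR adjusted p = 0.0275) and without Cd8b1 or Trdc cells (edgeR adjusted p = 0.0118), and with no filter on low counts Cd8a, Cd7, Jaml and Klrd1 were called, all lower. Cd7 had a log2 difference of -0.47 (edgeR adjusted p = 0.0761) and Cd8a of -1.50. Of all calls in the Il17a gate 58.95% were higher, and 47.3% with library-size scaling. The median of all genes there differed by 0.12 between DESeq2 and the main fit. DESeq2 was run without the filter on low counts, so the part of its size factors in this cannot be told apart. Among the cytotoxic and CD8-lineage genes beyond the members, of 15 tested, 14 rose and 0 fell in the Ifng gate, 11 rose and 2 fell in the Gzma gate, 2 rose and 8 fell in the Foxp3 gate, and 0 rose and 10 fell in the Il17a gate. Their median log2 differences were 0.80, 1.04, -0.75 and -1.06 in those gates, beside medians near 0 over all genes tested. The 2 that rose in the Foxp3 gate were Itgae and Gzmb. Of 15 helper-lineage genes, 3 rose and 7 fell in the Gzma gate, the 7 being Cd40lg, Gata3, Myb, Tcf7, Lef1, Satb1 and Cd28. Depth differed between the gates, as given above. With every cell thinned to 2000 UMIs, all 11 of the members' calls remained, in the same direction. The gates were still those set on full counts, and thinning hardly changes a gene's share of summed UMIs. The thinning therefore cannot show what part depth had in these calls, and that part was not tested.

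The gates also differed in how many cells carried Cd8a. At least 1 Cd8a UMI was found in 11.1% of Gzma-gate cells (193 of 1746; exact 95% interval 9.62 to 12.6%), 4.05% of Ifng-gate cells (267; 3.58 to 4.55%) and 1.13% of rest-gate cells (125; 0.944 to 1.35%). In the Foxp3 gate it was 0.847% (13 cells) and in the Il17a gate 0.512% (3 cells). These intervals cover counting error only. By library the Gzma-gate share was 6.60, 7.87, 6.20 and 22.4%, against 0.905, 0.779, 0.735 and 2.14% in the rest gate, and the Ifng gate lay between these in each library. Library 4 was high in the Gzma, Ifng and rest gates. It was high in the Foxp3 gate too, which had 0.488, 0.439, 0.254 and 2.90% in libraries 1 to 4, and at 0% in the Il17a gate. The Foxp3 and Il17a gates, with few Cd8a-positive cells, kept no fixed order with the rest gate between libraries.

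In all, 601 cells held a Cd8a UMI, 94, 103, 90 and 314 in libraries 1 to 4, so library 4 supplied 52.2% of them. A Cd4 UMI was found in 71.9% of the 601 Cd8a-positive cells and in 74.9% of the 20900 Cd8a-negative cells, at median depths of 3766 and 3850.5 UMIs. Cd4 had 338.5 ± 36.9 CPM in Cd8a-positive cells and 369.6 ± 14.1 CPM in Cd8a-negative cells, and the difference did not pass the test (edgeR adjusted p = 0.273). Cd8a-positive and Cd8a-negative cells were compared in a second edgeR fit of 8 sums with the library as a block, over 11747 genes. In it 368 genes rose and 627 fell, a higher share of 36.98%. That share was 47.8% with DESeq2 and 46.95% with library-size scaling. The median of all genes with DESeq2, taken without the filter on low counts, differed by 0.21 on the log2 scale, which is small beside the members' changes. Of the 8 members tested, 6 rose and 1 fell, where 3.13% and 5.34% of all genes rose and fell (8.47% together).

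Cd7 had 1685, 2610, 1167 and 1174 CPM in Cd8a-positive cells, against 245.2, 177.2, 164.3 and 153.7 CPM in Cd8a-negative cells. The sets were far apart in each library, with a log2 difference of 3.04 ± 0.13 (edgeR adjusted p = 5.1e-12). Jaml had 310.3, 338.7, 338.3 and 333.7 CPM in Cd8a-positive cells, against 101.2 ± 5.40 CPM in Cd8a-negative cells, a difference of 1.64 ± 0.09 (edgeR adjusted p = 1.5e-10). Jaml was the steadiest of the members between the libraries in Cd8a-positive cells. Cd160 had 519.3, 600.8, 593.7 and 414.7 CPM in Cd8a-positive cells, against 219.9 ± 7.95 CPM in Cd8a-negative cells, higher by 1.18 ± 0.10 (edgeR adjusted p = 4.2e-08).

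The beta chain and CD94 rose from a very low base. Cd8b1 had 97.0, 563.7, 151.9 and 68.3 CPM in Cd8a-positive cells, against 4.66 ± 1.56 CPM in Cd8a-negative cells, a log2 difference of 5.16 ± 0.30 (edgeR adjusted p = 3.6e-10). Klrd1 had 71.1, 262.1, 92.0 and 24.6 CPM, against 4.19 ± 1.57 CPM, a difference of 4.35 ± 0.31 (edgeR adjusted p = 6.5e-09). Both genes were highest in library 2 and lowest in library 4, the library with most Cd8a-positive cells. Fcer1g had 116.4, 206.5, 80.5 and 9.15 CPM in Cd8a-positive cells, against 7.90 ± 1.18 CPM in Cd8a-negative cells, with a difference of 3.24 ± 0.42 (edgeR adjusted p = 2.4e-05), and library 4 was close to the Cd8a-negative level. Klrk1 had 3.16 ± 3.08 CPM in Cd8a-positive cells and 1.98 ± 0.859 CPM in Cd8a-negative cells, and was not called (edgeR adjusted p = 0.912).

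Zbtb7b went the other way. It had 8.62, 2.32, 6.90 and 9.86 CPM in Cd8a-positive cells, 22 UMIs in all, against 17.6, 24.9, 28.9 and 26.5 CPM in Cd8a-negative cells. The sets did not overlap, and Zbtb7b fell by 1.73 ± 0.28 on the log2 scale (edgeR adjusted p = 2.5e-04), lower in 4 of 4 libraries. Without library 4, the 7 called members kept their calls, with log2 differences of 3.09 for Cd7, 1.61 for Jaml, 1.32 for Cd160, 5.37 for Cd8b1, 4.83 for Klrd1, 3.98 for Fcer1g and -2.05 for Zbtb7b. Without library 2, where Cd8b1 and Klrd1 were highest, the differences were 4.53 for Cd8b1, 3.92 for Klrd1 and 2.6 for Fcer1g, all still called. Among cells with a Cd4 UMI the same 7 were called, Zbtb7b with -1.52 (edgeR adjusted p = 0.0019).

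**Figure D2:**
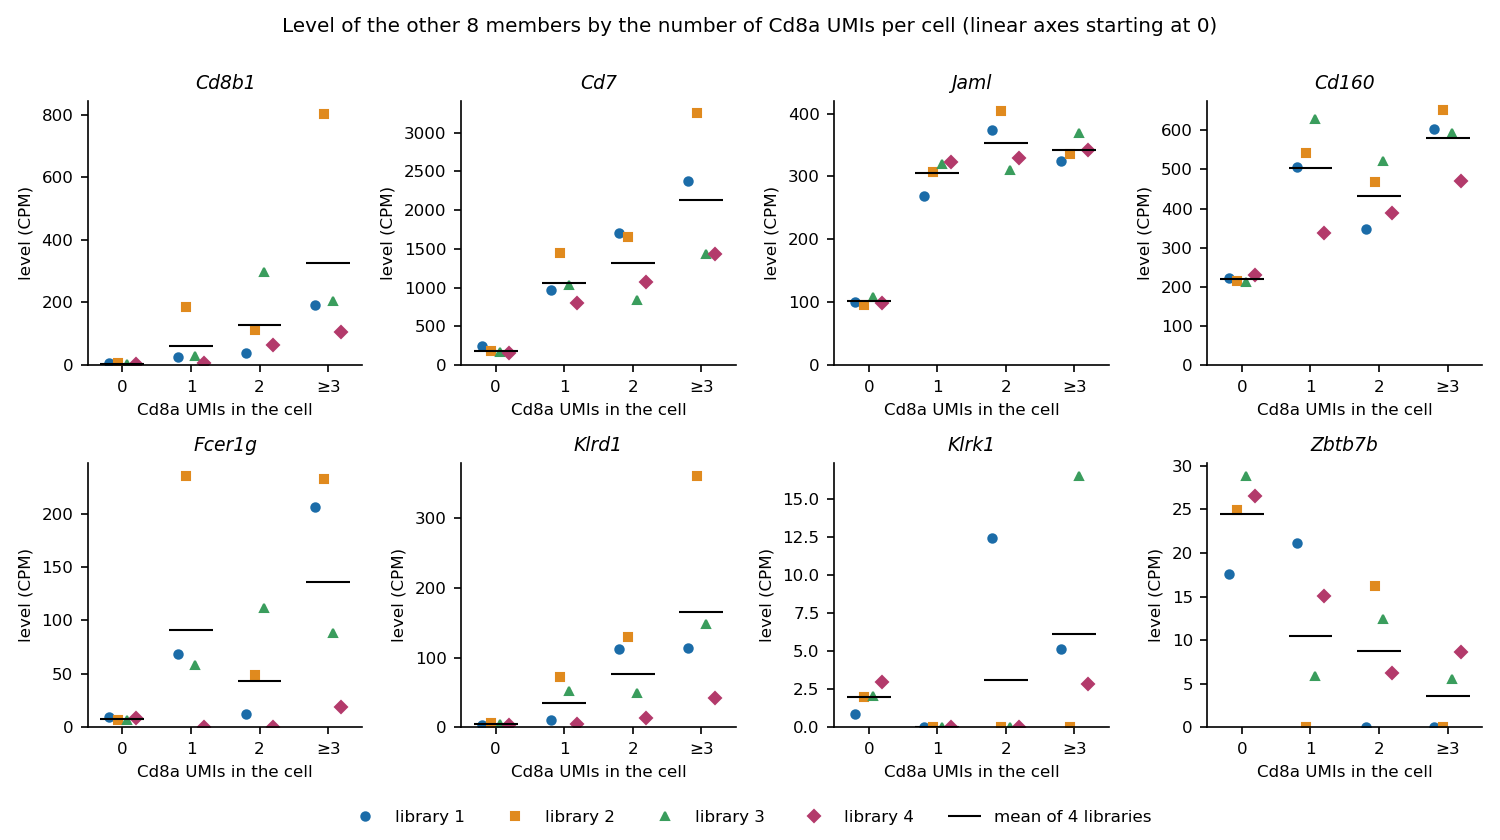
Level in CPM (linear y axes starting at 0) of the other 8 genes in cells with 0, 1, 2 and at least 3 Cd8a UMIs. Points are the 4 libraries and bars their mean; Cd7 averaged 185, 1062, 1316 and 2124 CPM in the 4 bins and Zbtb7b 24.5, 10.5, 8.69 and 3.52 CPM.

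Members differed in how they followed the number of Cd8a UMIs in a cell. The bins of 0, 1, 2 and at least 3 Cd8a UMIs held 20900, 196, 130 and 275 cells. Cd7 averaged 185, 1062, 1316 and 2124 CPM over these bins, Cd8b1 4.66, 61.8, 128 and 325 CPM, and Klrd1 4.19, 34.9, 75.8 and 166 CPM. These 3 genes rose in mean at each step. Jaml, at 101, 305, 354 and 343 CPM, and Cd160, at 220, 504, 431 and 580 CPM, had most of their difference already in the bin of 1 UMI. Zbtb7b averaged 24.5, 10.5, 8.69 and 3.52 CPM, from 2291, 11, 4 and 7 UMIs, and was at 0 in 2 of the 4 libraries in the highest bin. The order of the 3 positive bins is a description, since they rest on few cells in each library.

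The 81 cells that held both chains were set beside the 520 cells that held Cd8a alone, with no test, since they were few in each library. Of Cd8a-positive cells, 16.0, 34.0, 13.3 and 6.05% held Cd8b1 in libraries 1 to 4, against 1.70% of Cd8a-negative cells pooled. Cells with both chains had 218 ± 10.5 CPM of Cd4, cells with Cd8a alone 366 ± 27.8 CPM and cells with neither chain 371 CPM. Cells with Cd8a alone had 3478 ± 1317 CPM of Gzmb, a granzyme, and cells with both chains 1656 ± 1203 CPM. Jaml averaged 225 ± 87.6 CPM in cells with both chains and 350 ± 28.1 CPM in those with Cd8a alone. Cd7, Cd160 and Itgae were high in both sets, at 1753 ± 1111, 460 ± 175 and 518 ± 237 CPM with both chains and 1584 ± 524, 538 ± 95.5 and 604 ± 121 CPM with Cd8a alone. The 355 cells with Cd8b1 alone were set beside cells with neither chain in the same way: Cd7 averaged 154 ± 26.6 CPM in them against 186 ± 42.4 CPM, Zbtb7b 29.3 ± 13.8 against 24.4 ± 4.72 CPM, and Itgae 166 ± 45.6 against 161 CPM.

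A group of cells with antigen-presenting genes carried much of the Fcer1g. These were 308 cells with at least 5 UMIs of H2-Aa, H2-Ab1, H2-Eb1, Cst3 and Lyz2 together, a group set after the data were seen. At 2000 UMIs per cell, Fcer1g was detected in 28.9% of them and in 0.200% of the other cells. The 132 of them that held Fcer1g averaged 891.5 CPM of Tyrobp, an adaptor of NK and myeloid cells, 270 CPM of Siglech, a marker of plasmacytoid dendritic cells, and 1130 CPM of Cd3e. The 82 other cells with Fcer1g averaged 531 ± 457 CPM of Cd7, 155 ± 125 CPM of Klrd1 and 1882 CPM of Cd3e, with Siglech at 0. Among the 601 Cd8a-positive cells, 12 had antigen-presenting genes. Without all 308 cells the log2 differences between Cd8a-positive and Cd8a-negative cells were 4.6 for Fcer1g (edgeR adjusted p = 4.54e-05), 4.14 for Klrd1, 5.08 for Cd8b1, 3.07 for Cd7, 1.67 for Jaml, 1.23 for Cd160 and -1.80 for Zbtb7b. In the 74 cells with both chains that remained, Fcer1g, Tyrobp and Siglech were all at 0, and in the 310 Cd8a-positive cells of library 4 that remained Fcer1g was at 0 too.

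Markers of other lymphocytes were also read in Cd8a-positive and Cd8a-negative cells. The gamma-delta T cell genes summed to between 360 and 754 CPM per library in Cd8a-positive cells and to between 91.0 and 163 CPM in Cd8a-negative cells. Their defining gene Trdc had 3.16 ± 2.92 CPM in Cd8a-positive cells and 2.41 ± 2.42 CPM in Cd8a-negative cells, and Trdv4 was at 0 in Cd8a-positive cells and Sox13 at 0 in both sets. The sum lay mostly in the gamma constant genes: Tcrg-C2 averaged 208.9 ± 37.3 CPM in Cd8a-positive and 47.3 ± 12.2 CPM in Cd8a-negative cells, and Tcrg-C4 191.7 ± 62.4 and 46.4 ± 7.51 CPM, and both rose (edgeR adjusted p = 1.1e-10 and 1.0e-09). The part of these genes in the members' differences was not tested. NK and ILC1 genes summed to between 9.15 and 315 CPM in Cd8a-positive cells and to between 18.4 and 26.1 CPM in Cd8a-negative cells, nearly all of it Tyrobp, which is also a myeloid gene. Klrb1c (5.93 ± 4.75 CPM in Cd8a-positive and 8.04 ± 1.05 CPM in Cd8a-negative cells) and Eomes were not called, Ncr1 was at 0 in Cd8a-positive cells, and Klra4 and Klra8 were at 0 in both sets. Without the cells with antigen-presenting genes the NK and ILC1 sum was between 5.11 and 151 CPM in Cd8a-positive cells. Epithelial genes summed to between 4.6 and 17.2 CPM in Cd8a-positive cells and to between 17.7 and 26.1 CPM in Cd8a-negative cells. With cells that held a Cd8b1 or Trdc UMI left out, the log2 differences were 3.01 for Cd7, 1.72 for Jaml, 1.20 for Cd160, 3.88 for Klrd1, 2.90 for Fcer1g and -1.96 for Zbtb7b, and all 6 were called. Libraries shared 270 of 22632 different cell barcodes.

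**Figure D3:**
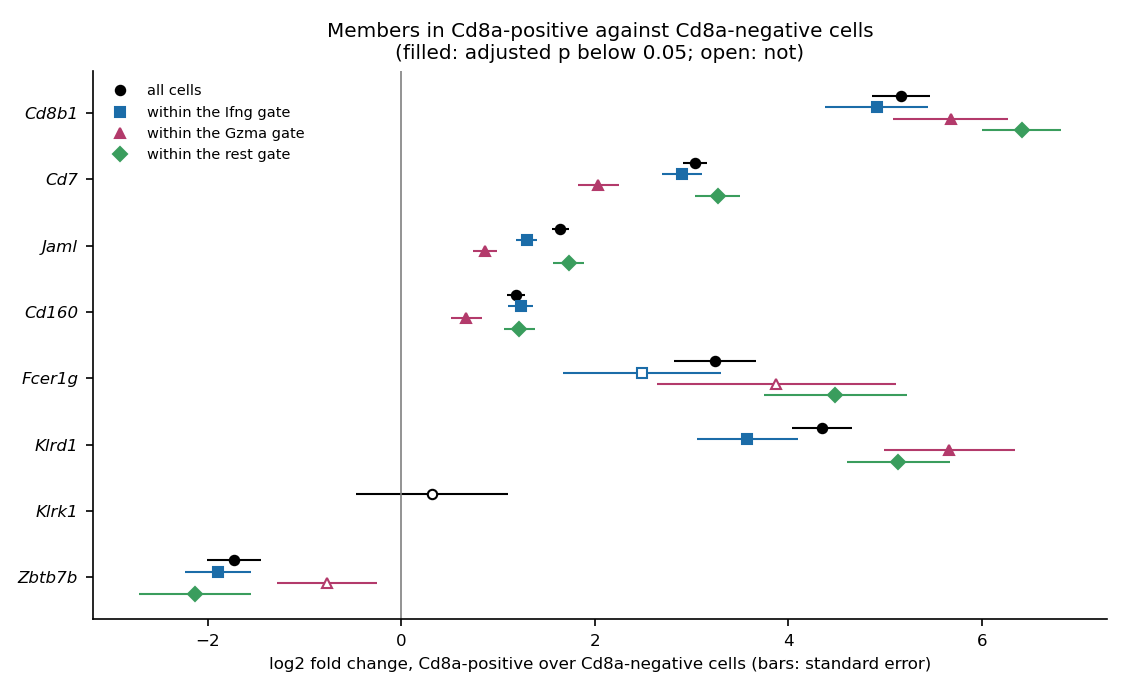
Log2 fold change of the other 8 genes in Cd8a-positive over Cd8a-negative cells (x axis; bars, standard error), over all cells and within the Ifng, Gzma and rest gates. Filled symbols had an edgeR adjusted p below 0.05; Zbtb7b lies below 0 in each of its 4 estimates, from -0.77 to -2.13, and Klrk1 was tested over all cells only.

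The difference with Cd8a was next measured inside the gates. Only the Ifng, Gzma and rest gates had Cd8a-positive sums of at least 10 cells in each library, so the fit covered 32 sums and these 3 gates. In the Ifng gate 5 of the 7 members tested rose and 1 fell, where 1.85% and 2.9% of all 10091 genes rose and fell (4.76% together). In the Gzma gate 5 rose and 0 fell, where 0.733% and 2.25% of all genes did (2.98% together), and in the rest gate 6 rose and 1 fell, where 2.03% and 2.84% did (4.88% together). Calls over all genes leaned lower under the main scaling, with 38.96, 24.6 and 41.7% of them higher in the Ifng, Gzma and rest gates. With DESeq2 these shares were 55.2, 44.0 and 71.1%, and with library-size scaling 47.1, 39.9 and 69.1%. The median of all genes with DESeq2, taken without the filter on low counts, differed by 0.14 in the Ifng gate and by 0.43 in the rest gate. Library-size scaling moved the median by 0.12 in the rest gate.

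Cd7 averaged 1562 ± 615 CPM in Cd8a-positive and 196 ± 45.2 CPM in Cd8a-negative cells of the Ifng gate, 1854 ± 823 and 430 ± 106 CPM in the Gzma gate, and 1870 ± 661 and 171 ± 41.8 CPM in the rest gate. Its log2 differences were 2.90 ± 0.21, 2.04 ± 0.22 and 3.27 ± 0.23. Jaml averaged 325 ± 16.6 CPM in Cd8a-positive and 128 ± 6.52 CPM in Cd8a-negative cells of the Ifng gate, 396 ± 36.3 and 209 ± 33.1 CPM in those of the Gzma gate, and 301 ± 63.0 and 86.2 ± 4.38 CPM in those of the rest gate. In Cd8a-negative cells both genes had their highest mean in the Gzma gate. Cd160 differed by 1.23 ± 0.13, 0.67 ± 0.16 and 1.22 ± 0.16 in the Ifng, Gzma and rest gates, all called (edgeR adjusted p = 5.3e-08, 0.0114 and 3.7e-06), although the Gzma-gate call was lost without library 2 (edgeR adjusted p = 0.0833) and among cells with a Cd4 UMI (edgeR adjusted p = 0.0854).

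Cd8b1 and Klrd1 were higher with Cd8a in each gate, Cd8b1 by 4.91 ± 0.53, 5.68 ± 0.59 and 6.41 ± 0.41 and Klrd1 by 3.58 ± 0.52, 5.66 ± 0.68 and 5.14 ± 0.53 on the log2 scale in the Ifng, Gzma and rest gates. Without library 2 these were 3.96, 4.76 and 5.86 for Cd8b1 and 2.44, 4.61 and 5.23 for Klrd1, all still called, Klrd1 in the Ifng gate narrowly (edgeR adjusted p = 0.0437). Fcer1g was called in the rest gate (4.49, edgeR adjusted p = 8.6e-05) and not in the Ifng gate (2.49, edgeR adjusted p = 0.0738) or the Gzma gate (3.88, edgeR adjusted p = 0.0864), and an F test of the difference between the gates was not called (edgeR adjusted p = 0.755). It was called in both of those gates without library 4 (2.83 and 5.01), without cells with antigen-presenting genes (4.77 and 6.69) and with no filter on low counts, and in the Gzma gate after thinning (4.22). In the Gzma gate, however, Fcer1g was higher with Cd8a in 1 of 4 libraries and lower in 3 (67.8 ± 136 against 3.87 ± 3.32 CPM). Its difference there ranged from -6.79 to 5.01 when 1 library was left out. In the rest gate Cd8a-positive cells had 385.4, 350.4, 269.6 and 0 CPM and Cd8a-negative cells 8.13 ± 2.04 CPM. Without cells that held a Cd8b1 or Trdc UMI the rest-gate call was lost (edgeR adjusted p = 0.0665). Zbtb7b averaged 7.73 ± 4.47 CPM in Cd8a-positive and 26.6 ± 6.00 CPM in Cd8a-negative cells of the Ifng gate, a log2 difference of -1.89 ± 0.34 (edgeR adjusted p = 3.4e-04). In the rest gate it averaged 6.54 ± 5.24 and 24.8 ± 5.17 CPM in these sets, a difference of -2.13 ± 0.58 (edgeR adjusted p = 0.0238) that rests on 3 UMIs and was lost without library 2, 3 or 4 (edgeR adjusted p = 0.18, 0.081 and 0.228), without the library block (0.1) and with DESeq2 (0.2). In the Gzma gate it averaged 5.77 ± 6.73 and 12.6 ± 1.65 CPM, and the difference of -0.77 ± 0.52 did not pass (edgeR adjusted p = 0.618).

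Whether the difference with Cd8a varied between the 3 gates was tested by an F test for each gene. It called 12 of 10091 genes (0.119%) and 0 of the 7 members, of which 4 (Jaml, Cd7, Cd160 and Klrd1) had an unadjusted p below 0.05. Jaml had the smallest adjusted p in edgeR (0.107) and Zbtb7b the largest (0.852), and the test was not run with DESeq2. Among the 12 were Itgae and Cd244. Itgae averaged 585 ± 118 CPM in Cd8a-positive and 151 ± 20.5 CPM in Cd8a-negative cells of the Ifng gate, 738 ± 99.4 and 428 ± 30.7 CPM in the Gzma gate, and 483 ± 150 and 112 ± 21.8 CPM in the rest gate, with log2 differences of 1.94, 0.75 and 2.01. Cd244, which encodes the receptor 2B4, differed by 3.67, 1.71 and 5.45 in the Ifng, Gzma and rest gates.

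Other genes of the programme moved with Cd8a. Of 16 CD8-lineage and cytotoxic genes, 13 rose and 0 fell in Cd8a-positive cells, with a median log2 difference of 1.06 beside -0.03 over all genes tested. The chemokine gene Ccl5 averaged 15960 ± 3244 CPM in Cd8a-positive and 2986 ± 526 CPM in Cd8a-negative cells, Gzma 10103 ± 3477 and 1452 ± 102 CPM, and Ccl4 1269 ± 279 and 143 ± 55.0 CPM. Runx3 averaged 214.2 ± 43.1 CPM in Cd8a-positive and 150.5 ± 19.2 CPM in Cd8a-negative cells, a small rise of 0.45 ± 0.10 (edgeR adjusted p = 0.00590). Crtam rose by 1.55 ± 0.34 (edgeR adjusted p = 0.00466), Itgae by 1.81 ± 0.11 (edgeR adjusted p = 5.9e-10) and Cd244 by 4.03 ± 0.26 (edgeR adjusted p = 1.6e-09), each in 4 of 4 libraries. Tbx21, Eomes and Xcl1 were the 3 that were not called.

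Helper-lineage genes went down with Zbtb7b: of 15, 0 rose and 9 fell, with a median of -0.64. The costimulatory receptor gene Cd28 averaged 115.7 ± 19.6 CPM in Cd8a-positive and 339.7 ± 14.7 CPM in Cd8a-negative cells, Gata3 60.9 ± 11.1 and 131.1 ± 29.7 CPM, and Cd40lg, the ligand with which helper cells act on B cells, 335.8 ± 67.3 and 645.3 ± 49.8 CPM. Of 8 NK receptor genes tested beyond the members, 4 rose (Klre1, Klrb1a, Cd244 and Slamf7) and 1 fell (Klrg1, 6.17 ± 6.28 CPM in Cd8a-positive and 75.8 ± 22.4 CPM in Cd8a-negative cells). Klre1 and Klrb1a were below 5 CPM on average in either set. Of 12 adaptor genes 3 rose and 3 fell. Tyrobp was 219.8 ± 144.8 CPM in Cd8a-positive and 8.15 ± 1.76 CPM in Cd8a-negative cells, higher in 3 of 4 libraries. In Cd8a-positive cells 79.2% of its UMIs lay in cells with antigen-presenting genes. With such cells left out of both sets, Tyrobp still averaged 49.0 CPM in Cd8a-positive and 1.17 CPM in Cd8a-negative cells. Of 5 tested genes for ligands of the members, among them H2-T23 and Ulbp1, edgeR called 0, and the smallest unadjusted p was 0.209, for H60b.

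Among genes with at least 20 CPM in 1 set and the same direction in all 4 libraries, with receptor-chain and other classes left out, the largest rises with Cd8a beside Cd8b1 and Klrd1 were in Ddc (25.2 ± 15.8 CPM in Cd8a-positive and 0.710 ± 0.122 CPM in Cd8a-negative cells), which encodes an aromatic amino acid decarboxylase, Scin (33.3 ± 25.9 and 1.40 ± 1.27 CPM), which encodes an actin-severing protein, and Heyl, Rnase6, Cd244 and Plcg2. Rnase6 had 95.2% of its UMIs in Cd8a-positive cells within cells with antigen-presenting genes, and fell to 0.548 CPM in Cd8a-positive and 0.266 CPM in Cd8a-negative cells without them. By the same rule the largest drops were in Il17a, Il22, Penk, Cd83, Klrg1, Epas1, Ifitm2 and Tnfrsf4, with log2 differences between -6.49 and -2.51. Il22 averaged 5.72 ± 8.52 CPM in Cd8a-positive and 92.5 ± 56.3 CPM in Cd8a-negative cells, and Tnfrsf4, which encodes the costimulatory receptor OX40, 53.9 ± 14.3 and 314.2 ± 61.7 CPM.

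Co-detection within single cells was counted at 2000 UMIs per cell and set beside the number expected if the 2 genes of a pair were independent within each library and gate. Without thinning, Zbtb7b was found in 20 of the 601 Cd8a-positive cells (3.33%), against 9.99% of Cd8a-negative cells, so the pair did occur together. At 2000 UMIs Cd8a and Zbtb7b were detected together in 0 cells, where 17.3 were expected: 433 cells held Cd8a at this depth, and none of them held a Zbtb7b UMI. Of the 17.3 cells, 9.05 were expected in the Ifng gate, 3.47 in the Gzma gate and 4.29 in the rest gate. Cells with a Cd8a UMI before thinning had Zbtb7b in 0.696% (4 cells of 575) at this depth, against 4.84% of Cd8a-negative cells. Cd8a with Cd7 was found in 330 cells where 124.6 were expected, a ratio of 2.65, with Cd160 in 237 where 136.5 were expected and with Jaml in 186 where 102.6 were expected. Cd7 was found in 73.5% of the Cd8a cells of the Ifng gate, 79.2% of those of the Gzma gate and 81.4% of those of the rest gate.

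The highest ratios to expectation were all in pairs among Cd8a and the rare genes, but not every such pair was high. Cd8a and Klrk1 were together in 3 cells where 1.31 were expected, and Cd8b1 and Klrk1 in 1 where 0.620 were expected. Klrd1 and Klrk1 were detected together in 26 cells where 0.632 were expected, Cd8a and Cd8b1 in 52 where 4.72 were expected, Cd8b1 and Klrd1 in 22 where 2.15 were expected, and Cd8a and Klrd1 in 42 where 4.92 were expected. Fcer1g was found with Klrd1 in 12 cells where 1.23 were expected and with Klrk1 in 5 where 0.421 were expected. Jaml and Klrk1 were found together in only 4 cells where 11.2 were expected, below expectation in each library. Cd7 and Zbtb7b were together in 149 cells where 196 were expected, again below in each library, whereas Cd160 and Zbtb7b were at 0.979 of expectation. Klrk1 thus lay with Klrd1 but away from Jaml. The 97 cells with Klrk1 and under 5 antigen-presenting UMIs averaged 311 ± 189 CPM of Klrd1, 36.7 ± 32.8 CPM of Jaml, 54.5 ± 28.7 CPM of Zbtb7b and 49.0 ± 31.4 CPM of Itgae, while the 263 such cells with Klrd1 averaged 332 ± 232 CPM of Cd8a and 933 ± 508 CPM of Cd7. Library 2 raised the Cd8a level of the Klrd1 cells, which was 216 CPM without it.

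**Figure D4:**
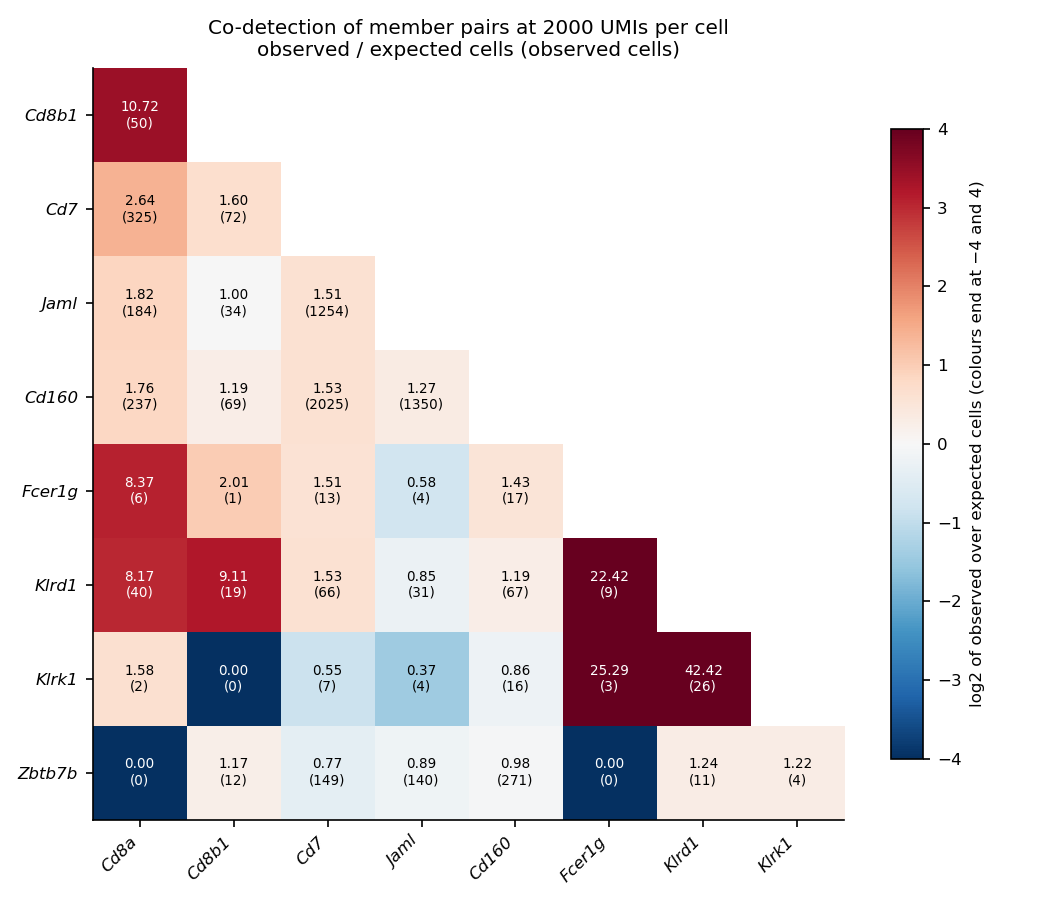
Observed over expected number of cells with both genes of each of the 36 pairs at 2000 UMIs per cell, in cells with under 5 antigen-presenting UMIs (observed cells in brackets; colour, log2 of the ratio, ending at -4 and 4). Klrd1 with Klrk1 (26 cells) and Cd8a with Cd8b1 (50 cells) lie far above 1, and Cd8a with Zbtb7b is at 0 where 16.96 cells were expected.

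Cd7, Jaml and Cd160 went together as well. Cd7 and Cd160 shared 2046 cells where 1337 were expected, Cd7 and Jaml 1269 where 840 were expected, and Jaml and Cd160 1373 where 1080 were expected. Cells were then split by how many of these 3 genes were detected: 0 in 10803 cells, 1 in 6565, 2 in 2732 and 3 in 652. Cd8a was detected in 0.313, 2.26, 5.79 and 14.4% of these cells (mean of 4 libraries), and in 0.195, 1.26, 3.80 and 10.4% without library 4. Itgae, which encodes the integrin chain that binds epithelial E-cadherin, was detected in 15.4, 25.4, 41.4 and 61.3% of them, and Zbtb7b in 5.04, 4.88, 3.72 and 2.18%. Over all cells the Itgae share was thus higher, and the Zbtb7b share lower, at each step. Within the rest gate Itgae was detected in 10.3, 18.7, 32.96 and 56.3% and Zbtb7b in 4.62, 5.61, 4.03 and 3.29%, so Zbtb7b was higher at the first step there, and in the Il17a gate Zbtb7b went 4.39, 6.27, 2.27 and 0%, the last from 9 cells. In the Gzma gate the 146 cells with all 3 genes held Cd8a in 28.4% and Itgae in 76.5%. In the Foxp3 gate no cell held all 3, of 1506 at this depth, which allows a share of up to 0.199%. Itgae was not particular to cells with these receptors. Foxp3-gate cells with 0, 1 and 2 of the 3 genes held it in 36.1, 50.8 and 65.6%.

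**Figure D5:**
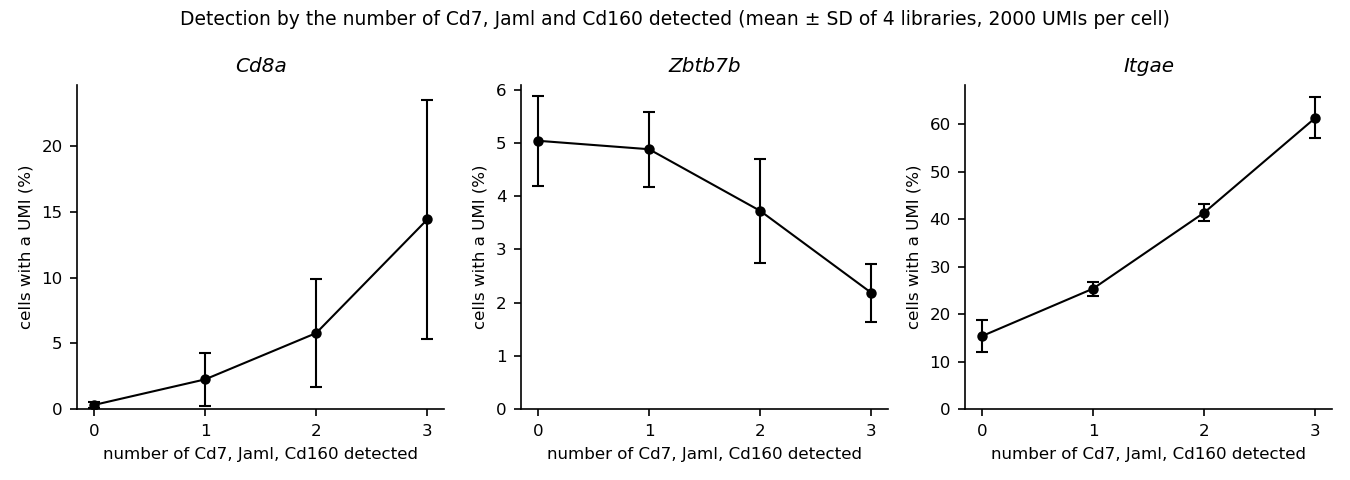
Share of cells (%, at 2000 UMIs per cell) in which Cd8a, Zbtb7b and Itgae were detected, by the number of Cd7, Jaml and Cd160 detected in the cell (x axis). Points are the mean of 4 libraries and bars the SD; Itgae climbs to 61.3% and Zbtb7b drops to 2.18% in cells with all 3.

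Set against the genes known from intraepithelial CD4 cells, the members fell into groups. Cd8a, Cd7, Jaml and Cd160 were higher in the Gzma gate, and Zbtb7b was lower there. Over all cells, those with Cd7, Jaml and Cd160 all detected held Cd8a and Itgae most often and Zbtb7b least often. Itgae was also called higher in the Foxp3 gate, where Cd7, Jaml and Cd160 were lower. For Cd160 the rise in the Gzma gate was small, and its call was lost when some of the libraries were left out in turn. Klrd1 and Cd8b1 went with Cd8a in each gate tested but were in few cells. Fcer1g lay largely in cells with antigen-presenting genes, although it was still called higher with Cd8a when those cells were left out. Klrk1 was at 1 UMI in the Gzma gate. Whether Cd8a-positive cells had come from the epithelium during preparation or lay in the lamina propria cannot be told apart here.

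Across the 20 library-by-gate sums, the gene most like Cd8a among those of at least 20 CPM was Ccl5 (Pearson r = 0.950 on log2(CPM + 1), centred within each library), followed by Gpr34 and Smim11. Jaml was most like Ptpn22 (0.970), Ptger4 (0.969) and Tgfbr3 (0.963), and Cd160 most like Tesc (0.977), Rnf166 (0.965) and Tgfbr3 (0.965). Cd7 was most like Baiap3 (0.947), Cd3e (0.936) and Abi3 (0.931). Zbtb7b was most like Gramd1b (0.856), Tecpr1 (0.827) and Ltb (0.812), the last of which encodes lymphotoxin beta. The closest values were lower for the rare members, at 0.884 for Klrd1 with Fam234b, 0.840 for Fcer1g with Ggps1, 0.808 for Klrk1 with Atg4b and 0.799 for Cd8b1 with Mms19. The 20 sums come from 4 libraries and share their gates, so these values are a description.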

How the data were processed

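Single-cell 5′ gene expression was measured in 4 libraries of sorted CD4 T cells. The authors deposited filtered matrices of UMI counts per gene and cell barcode, made with Cell Ranger 3.0.2 on mm10 per the submitters' processing notes; no normalization had been applied. Of 22904 barcodes, 22534 passed minimums of 500 genes and 1000 UMIs and a mitochondrial maximum of 10%, and the 1033 with the highest Scrublet doublet scores (0.8% per 1000 barcodes) were removed (scanpy 1.11.5). Libraries held 28783972, 26407082, 23918884 and 26681150 UMIs; intervals and limits cover counting error only. UMI counts were summed per library and set of cells, so that cells were not used as replicates, and were tested with edgeR 4.0.16 (quasi-likelihood F test, TMM, filterByExpr, library as a block, Benjamini-Hochberg over all genes tested, threshold 0.05; R 4.3.3), after a check on simulated data. The genes that set a gate, and Cd8a where it set the groups, were left out of the tested genes. Gates of 1 library are paired by that library. The design text names 4 mice, but no label ties a library to 1 mouse, so p-values measure the spread between libraries. The F test between gates had been planned over 5 gates and could be made over 3, since sums of under 10 cells were left out. The named genes beyond the members are the 8 with the largest rise and the 8 with the largest drop with Cd8a (at least 20 CPM in 1 set, same direction in all 4 libraries, no predicted, receptor-chain, ribosomal or mitochondrial genes) and the 3 best by adjusted p within each list; Itgae, Runx3, Crtam, Gzmb, Il22, Tcrg-C2, Tcrg-C4, Klrb1c and the receptor genes Klre1 and Klrb1a were singled out after their values were seen. Cd244 stands for the listed symbol Cd244a. The members and lists were chosen with earlier results of these data known. Gene positions are from GENCODE vM21. Alternatives were DESeq2 1.42.0, library-size scaling, no filter, no block, other cell filters, thinning to 2000 UMIs, other Gzma and Cd8a minimums and leaving out each library.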

Additional observations from a re-analysis of the deposited data

Results flagged for a closer look

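In 3 of 54 sets of 4 library values (9 genes by all cells and 5 gates), 1 library stood apart from the other 3 by Dixon's criterion for a gap to the nearest value; chance alone gives this in about 1 of 20 sets. Cd8b1 over all cells was at 15.5 CPM in library 2 and between 6.69 and 7.99 CPM in the other 3. Klrk1 in the Gzma gate was at 0.529 CPM in library 4, which is 1 UMI, and at 0 in the other 3. Zbtb7b in the Il17a gate was at 25.6 CPM in library 4 and between 16.9 and 17.8 CPM in the other 3. The difference with Cd8a varied between the Ifng, Gzma and rest gates for 0 of the 7 members tested by edgeR's F test, of which 4 had an unadjusted p below 0.05.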

How the results depend on the processing

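Of the members' log2 differences under the alternatives, 786 kept direction and side of the threshold, 36 passed it, 21 lost it and 19, none of them called, changed sign. Without the replicate block (the library), 388 genes were called for the Ifng gate against rest (1068 with it), 982 for the Gzma gate against rest (1571), 705 with Cd8a (995) and 5 for its difference between gates (12). Thinned to 2000 UMIs, calls were 2209 for the Foxp3 gate (3323), 834 for the Il17a gate (2575), 1044 for the Gzma gate, and 282, 171 and 266 for the Cd8a effect within the Ifng, Gzma and rest gates (480, 301 and 492). With no filter on low counts these were 736, 494 and 742, and 195 for the difference between gates. Without Cd8b1 or Trdc cells the rest gate gave 275 and the difference 4, and without antigen-presenting-gene cells, an alternative chosen after seeing the data, 247 and 3. Without 1 library each in turn, counts ranged from 2631 to 2983 (Foxp3 gate), 1760 to 2152 (Il17a gate), 676 to 878 (Ifng gate), 1150 to 1276 (Gzma gate), 595 to 757 (Cd8a), 279 to 347, 128 to 244 and 210 to 449 (within the Ifng, Gzma and rest gates) and 2 to 35 (difference); Cd8a ranged from 15.4 to 26.9 CPM and from 1.30 to 2.42% of cells.

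Sign changes in the Ifng gate against rest were of Fcer1g (-0.16 with DESeq2, -0.0067 with no filter, -0.076 with no doublet removal, -0.37 to 0.28 without 1 library), Klrd1 (-0.055 to 0.31 without 1 library), Zbtb7b (-0.0023 to 0.11) and Cd160 (-0.14 to 0.0076). In the Il17a gate against rest they were of Fcer1g (0.14 with no doublet removal, 0.34 among cells with a Cd4 UMI, -1.74 to 0.28 without 1 library) and Cd8b1 (0.15 without antigen-presenting-gene cells). Fcer1g also changed sign at 20 Gzma UMIs (0.078) and within the Gzma gate with Cd8a (-6.79 to 5.01 without 1 library), and Klrk1 with Cd8a (-0.26 without antigen-presenting-gene cells, -0.32 to 1.14 without 1 library). The cause of these changes was not tested. Klrd1 in the Gzma gate was called after thinning (1.16), without antigen-presenting-gene cells (1.17), at 20 Gzma UMIs, with no filter and without library 1. Cd8b1 in the Foxp3 gate was called without antigen-presenting-gene cells (1.06, edgeR adjusted p = 0.00973), without library 2 and with no filter. The difference between gates was not run with DESeq2. Counts of a few UMIs limit Klrk1, Fcer1g and Zbtb7b in Cd8a-positive cells.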

Other observations

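The 355 cells with Cd8b1 and no Cd8a UMI held 448 Cd8b1 UMIs in all. They had 332 ± 48.1 CPM of Cd4 and 29.3 ± 13.8 CPM of Zbtb7b, and 200 ± 26.6 CPM of Cd8b1 itself, against 1000 ± 477 CPM of Cd8b1 in the 81 cells that also held Cd8a. In 31 cells with no Cd3e, Cd3d or Cd3g UMI that reached 2000 UMIs, Fcer1g was detected in 51.6%, Cd7 in 38.7%, Cd8b1 in 19.4% and Cd8a in 9.68%. The 82 cells with Fcer1g and under 5 antigen-presenting UMIs had 332 ± 85.7 CPM of Cd160 and 263 ± 197 CPM of Tyrobp.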
